A study of Mus musculus with 7 samples.

Results

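Triglyceride (TAG) assembly from glycerol-3-phosphate was followed through the mRNA of 10 genes, chosen by symbol: *Gpd1*, *Gpam*, *Gpat3*, *Gpat4*, *Agpat2*, *Agpat3*, *Lpin1*, *Lpin2*, *Dgat1* and *Dgat2*. All 10 had a row among the 14819 rows of the count table, and all 10 were among the 14779 genes tested. RNA-seq of primary mouse hepatocytes compared 4 wild-type (WT) libraries with 3 libraries from *Wdr6* whole-body knockout (WDR6-WKO) mice, in which CRISPR–Cas9 had removed exon 2 of *Wdr6* from every cell of the animal. Hepatocytes of both genotypes came from male mice by collagenase perfusion of the liver, stood overnight in William's E medium with 10% fetal bovine serum, and received no other treatment. The methods name C57BL/6J mice of 7 weeks, male or female, as the default for purchased animals. They do not restate strain or age for the donors of these hepatocytes. How donors of the genotypes relate to each other is not given in the sources used here. The comparison asks which of these mRNAs differ when WDR6, a WD40-repeat protein that the study places in hepatic lipogenesis, is missing. Because the knockout is in the whole body, a difference that arose in the animal and one that arose in the cultured cells cannot be told apart.

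TAG is built by attaching fatty acids, one after another, to the backbone of glycerol-3-phosphate. A glycerol-3-phosphate acyltransferase (GPAT) adds the first acyl chain, an acylglycerolphosphate acyltransferase (AGPAT) adds the next and makes phosphatidic acid, a lipin phosphatase removes the phosphate to give diacylglycerol, and a diacylglycerol acyltransferase (DGAT) adds the last chain. Each step has several isozymes that differ in their membrane and tissue, and phosphatidic acid and diacylglycerol also feed the synthesis of phospholipids, which leaves the TAG path at these points.

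The libraries held 17816913 to 23668940 counted reads. *Wdr6* itself was at 44.0 ± 4.03 CPM in WT and fell to 2.38 ± 0.179 CPM in WDR6-WKO (here and below mean ± s.d., n = 4 and 3), with every knockout library far below every WT library. CPM are counts scaled to one common library total with edgeR's TMM factors, and where a gene's values are listed they follow the replicate numbers, 1 to 4 in WT and 1 to 3 in WDR6-WKO. The hepatocyte markers *Alb*, *Apob*, *Ttr*, *Apoa1*, *Fgb*, *Serpina1a*, *Hnf4a*, *Cps1* and *Asgr1* were present in every library, with *Alb*, which encodes albumin, the highest at 7366 ± 730.4 CPM in WT. *Fabp1*, the liver fatty acid binding protein gene and usually an abundant hepatocyte transcript, was counted at only 0.760 ± 0.116 CPM in WT and 0.674 ± 0.117 CPM in WDR6-WKO. WDR6-WKO replicate 3 stood apart from the other knockout libraries, with a chi-square per gene of 14.3 and 15.9 against WDR6-WKO replicates 1 and 2, which differed from each other by 5.14, and WT pairs gave 3.798 to 8.22. Over all genes, the quasi-likelihood test of edgeR, with p adjusted by the Benjamini-Hochberg method, called 1897 genes under 0.05. This number was 4233 without WDR6-WKO replicate 3, 1032 without WDR6-WKO replicate 2, 1180 without WDR6-WKO replicate 1, 1182 without WT replicate 4 and 1210 without WT replicate 3.

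Of the 10 genes, 5 passed that test, *Gpat3* and *Dgat2* higher and *Gpam*, *Lpin1* and *Lpin2* lower in WDR6-WKO. Over all genes tested, 12.8% passed, with 6.65% higher and 6.18% lower. The same 5 genes were those whose CPM ranges in the genotypes did not overlap, which held for 23.5% of all genes tested. Every step with more than one listed isozyme except the AGPAT step had a member that passed, and in the GPAT step the members moved in opposite directions. The median log2 fold change of the 10 genes was -0.07, beside 0.01 over all genes tested, with 3 values above 0 and 7 below. The study's methods use another threshold, 0.35 or more in either direction on the log2 scale at an unadjusted p under 0.05. By it 3 of the 10 passed (*Gpat3* higher, *Gpam* and *Lpin2* lower), against 10.4% of all genes, 6.42% higher and 3.94% lower. The summed level of the 10 mRNAs was 1201 to 1241 CPM in WT and 1072 to 1126 CPM in WDR6-WKO, so it was lower in every knockout library. This sum was not scaled for gene length. *Lpin2*, the gene with the highest CPM among the 10, fell from a mean of 474 to 362 CPM and made up most of the difference.

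**Figure D1:**
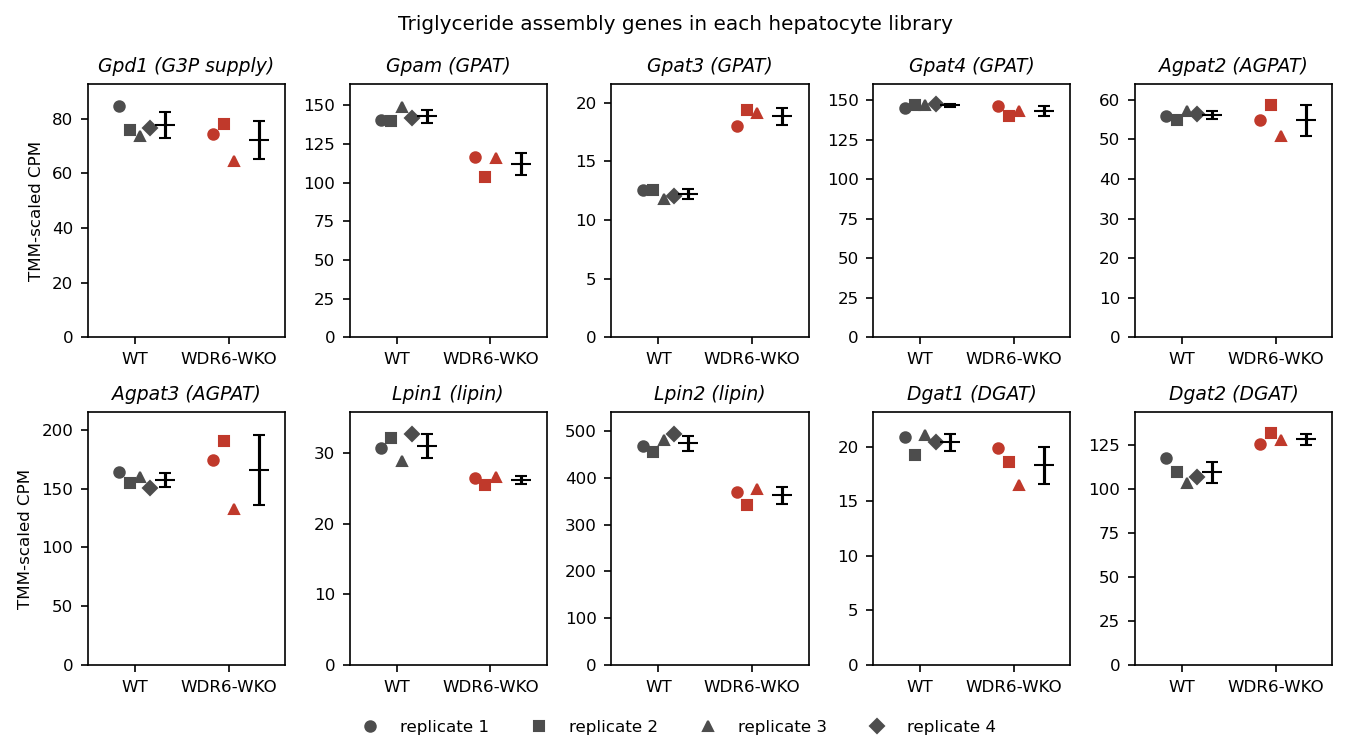
TMM-scaled CPM (vertical axes, each starting at 0) of the 10 genes in 4 WT libraries (grey) and 3 WDR6-WKO libraries (red), with the replicate number as the symbol and the mean with its s.d. as the bar beside each group. The groups are apart for *Gpam*, *Gpat3*, *Lpin1*, *Lpin2* and *Dgat2*, and WDR6-WKO replicate 3 is the lowest library for *Gpd1*, *Agpat2*, *Agpat3* and *Dgat1*.

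Glycerol-3-phosphate is made from dihydroxyacetone phosphate by the cytosolic dehydrogenase encoded by *Gpd1* (chr15:99717515-99725005 in GRCm38, + strand). *Gpd1* was measured at 84.6, 75.9, 73.7 and 76.5 CPM in WT and at 74.2, 77.8 and 64.3 CPM in WDR6-WKO. The ranges overlapped, and the lowest value was that of WDR6-WKO replicate 3. The log2 fold change was -0.11 (95% interval -0.25 to 0.04, adjusted p = 0.354 by edgeR), and it was -0.03 without WDR6-WKO replicate 3, so a change of *Gpd1* was not detected. Its exons share 384 bases with the antisense gene *Gm16537*, which was not analysed here.

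In the first acylation 2 of 3 isozymes passed the test, in opposite directions. *Gpam* (chr19:55067268-55127238, - strand) encodes the mitochondrial GPAT, a well-known target of insulin and SREBP-1c in liver. It was counted at 141, 139.8, 149 and 142 CPM in WT and at 116, 104 and 116 CPM in WDR6-WKO. Every knockout library lay below every WT library, with WDR6-WKO replicate 2 the lowest. *Gpam* fell from 143 ± 4.26 CPM (s.d.) to 112 ± 7.18 CPM, which is 78.4% of WT (log2 fold change -0.35, SE 0.05, adjusted p = 0.000509 by edgeR). A two-sided exact permutation test on the 7 libraries gave p = 0.0286, the smallest value that the 35 splits allow. In bulk RNA, fewer hepatocytes and less of this mRNA per hepatocyte cannot be told apart.

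*Gpat3* (chr5:100845713-100899102, + strand) encodes a GPAT of the endoplasmic reticulum best known from adipocytes. Its level was 12.6, 12.6, 11.8 and 12.0 CPM in WT and 17.99, 19.4 and 19.1 CPM in WDR6-WKO. All knockout libraries were above all WT libraries, and the spread within each genotype was small beside the gap. *Gpat3* rose 1.54-fold (log2 fold change 0.62, SE 0.08, 95% interval 0.44 to 0.80, adjusted p = 0.000146 by edgeR), the only one of the 10 genes to differ by more than 1.5-fold. The exact two-sided permutation p was again the smallest possible, 0.0286. These values rest on 221 to 433 reads a library, and 221 reads carry a counting error of 6.73%. Of the exon bases of *Gpat3*, 37.4% are shared with other genes, 1052 bases with the antisense gene *4930458D05Rik* and 259 with *Gm42987* on the same strand. Whether the reads were counted by strand is not given, so reads of *Gpat3* and of its antisense partner cannot be told apart in the shared stretch. The reads that were assigned to *4930458D05Rik* came to 0.589 ± 0.293 CPM in WT and 0.595 ± 0.171 CPM in WDR6-WKO (log2 fold change -0.01, 95% interval -0.88 to 0.87, adjusted p = 0.996 by edgeR).

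*Gpat4* (chr8:23171265-23208346, - strand), the other GPAT of the endoplasmic reticulum, stood at 145, 147, 147 and 148 CPM in WT and at 146, 140.5 and 143 CPM in WDR6-WKO. The ranges overlapped within a few CPM. The log2 fold change was -0.03 with a 95% interval of -0.13 to 0.06 (adjusted p = 0.670 by edgeR), so the interval holds neither the fall of *Gpam* nor the rise of *Gpat3*.

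To set genes that moved in opposite directions side by side in sequence, the 250 bases before the RefSeq start site (GRCm38.p6) are shown for *Gpam* and *Lpin2*, which fell, and for *Gpat3*, which rose. Capitals mark CACGTG, the core of the E-box to which bHLH factors such as USF1 and SREBP-1 bind, and CCAAT on either strand (ATTGG where it lies on the other strand).
Gpam, promoter 1, chr19:55127239-55127488, - strand: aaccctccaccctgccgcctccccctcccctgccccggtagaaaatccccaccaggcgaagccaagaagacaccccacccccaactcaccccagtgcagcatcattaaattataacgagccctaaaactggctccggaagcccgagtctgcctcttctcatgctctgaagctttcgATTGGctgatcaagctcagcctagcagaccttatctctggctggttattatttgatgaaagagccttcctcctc
Gpat3, promoter 1, chr5:100845979-100846228, + strand: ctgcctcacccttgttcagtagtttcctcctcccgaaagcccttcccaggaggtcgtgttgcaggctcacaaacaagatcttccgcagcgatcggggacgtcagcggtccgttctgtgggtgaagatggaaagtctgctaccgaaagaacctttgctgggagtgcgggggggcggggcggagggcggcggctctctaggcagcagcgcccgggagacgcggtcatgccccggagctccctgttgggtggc
Lpin2, promoter 1, chr17:71183282-71183531, + strand: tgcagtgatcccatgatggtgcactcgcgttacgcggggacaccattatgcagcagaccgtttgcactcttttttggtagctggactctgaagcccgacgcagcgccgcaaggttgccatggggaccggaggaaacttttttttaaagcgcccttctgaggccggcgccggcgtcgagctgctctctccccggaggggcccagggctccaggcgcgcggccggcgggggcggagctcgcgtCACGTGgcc
In the window of *Gpam* 1 CCAAT match lay with its first base 74 bases before the start (position -74), and the second listed *Gpam* start had none. The first of 3 listed *Lpin2* starts had 1 CACGTG at position -9, which no other window of the 10 genes held, and the last of its starts had 3 CCAAT matches. The *Gpat3* window held neither word. The same was true of the windows of *Lpin1*, which was also lower but is not shown above, and of *Agpat2* and *Agpat3*. GGGCGG, not marked above, was found 3 times before the *Gpat3* start, at positions -81, -76 and -69. It was also found at -24 and 7 at the first *Lpin2* start, at -79 at its second start and at -16 at the second *Gpam* start. The *Agpat2* window held it at -42, -37 and 25, and the windows of *Lpin1* and *Agpat3* did not hold it. Both strands were searched over 250 bases before to 50 bases after a start, and CACGTG was found in 7.15%, CCAAT in 37.4%, GGGCGG in 35.7% and TATAAA in 13.6% of 32851 mouse promoters of that length. Windows were listed for 6 of the 10 genes, 9 in all, with no TATAAA in any. *Gpat4*, *Dgat1*, *Dgat2* and *Gpd1* had no entry. These matches are letters in a window and were not tested for binding.

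The next acylation showed no change that held across libraries. *Agpat2* (chr2:26593057-26604417, - strand), whose human counterpart is mutated in congenital generalized lipodystrophy, was at 56.0, 54.8, 57.3 and 56.4 CPM in WT and at 55.0, 58.7 and 50.8 CPM in WDR6-WKO. The knockout values spread to both sides of the WT values. Its log2 fold change was -0.03 (95% interval -0.16 to 0.10, adjusted p = 0.777 by edgeR), and the sign turned to 0.01 without WDR6-WKO replicate 3.

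*Agpat3* (chr10:78269178-78352489, - strand), an acyltransferase that also handles polyunsaturated chains, was at 165, 154, 159.7 and 151 CPM in WT and at 175, 191 and 133 CPM in WDR6-WKO. WDR6-WKO replicates 1 and 2 were above, and replicate 3 below, every WT library. The level in WDR6-WKO replicate 3 was 72.7% of the mean of the other knockout libraries, which made this the most variable of the 10 genes in the knockout (coefficient of variation 18.02%, against 3.87% in WT). With all libraries the log2 fold change was 0.08 (95% interval -0.15 to 0.30, adjusted p = 0.665 by edgeR). Without WDR6-WKO replicate 3 it was 0.21 (adjusted p = 0.000668 by edgeR) and passed the test, and without WDR6-WKO replicate 2 it turned to -0.03 (adjusted p = 0.890 by edgeR). Whether *Agpat3* differs between the genotypes therefore rests on which knockout libraries are used.

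Both lipins were lower in WDR6-WKO. *Lpin2* (chr17:71182560-71249817, + strand), the form regarded as prominent in liver, was at 468, 455, 480.2 and 492 CPM in WT and at 369.9, 342 and 375 CPM in WDR6-WKO. The groups were far apart, with the highest knockout library well under the lowest WT library. *Lpin2* fell from 474 ± 16.1 to 362 ± 17.6 CPM, to 76.5% of WT (log2 fold change -0.39, SE 0.05, 95% interval -0.49 to -0.28, adjusted p = 7.71e-05 by edgeR). This was the smallest adjusted p of the 10 genes. The exact two-sided permutation p was 0.0286.

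*Lpin1* (chr12:16535669-16610966, - strand) encodes the founding lipin, which acts as phosphatase and as a nuclear coactivator with PGC-1α and PPARα. Its CPM were 30.7, 32.1, 28.8 and 32.6 in WT and 26.4, 25.5 and 26.6 in WDR6-WKO. The knockout libraries lay close together under all WT libraries, and WT replicate 3 was the nearest to them. *Lpin1* fell to 84.3% of WT (log2 fold change -0.25, SE 0.07, adjusted p = 0.0328 by edgeR), while the exact two-sided permutation test gave p = 0.0571. The call was lost when any one of WT replicates 1, 2 or 4 or WDR6-WKO replicates 1 or 2 was left out, with adjusted p up to 0.120 by edgeR and log2 fold changes of -0.28 to -0.22 over all 7 omissions, so the direction held and the call did not.

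In the last step only *Dgat2* passed the test. *Dgat2* (chr7:99153658-99182719, - strand), the isozyme tied to newly made fatty acids in hepatocytes, was at 118, 109.9, 104 and 107 CPM in WT and at 125, 132 and 128 CPM in WDR6-WKO. All knockout libraries were above all WT libraries, and WT replicate 1 was the nearest to them. *Dgat2* rose 1.17-fold (log2 fold change 0.23, SE 0.05, 95% interval 0.11 to 0.34, adjusted p = 0.0114 by edgeR), and the exact two-sided permutation p was 0.0571. Without WT replicate 3 the adjusted p was 0.0536 by edgeR, with a log2 fold change of 0.20. It was just under the threshold without WDR6-WKO replicate 2 (adjusted p = 0.0499 by edgeR) and without WT replicate 4 (adjusted p = 0.0482 by edgeR).

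*Dgat1* (chr15:76502015-76511953, - strand), which re-esterifies diacylglycerol from several sources, was at 20.9, 19.3, 21.1 and 20.5 CPM in WT and at 19.9, 18.6 and 16.5 CPM in WDR6-WKO. WDR6-WKO replicate 1 lay inside the WT range and the other knockout libraries below it. The log2 fold change was -0.15 (95% interval -0.33 to 0.03, adjusted p = 0.260 by edgeR), and -0.09 without WDR6-WKO replicate 3.

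**Figure D2:**
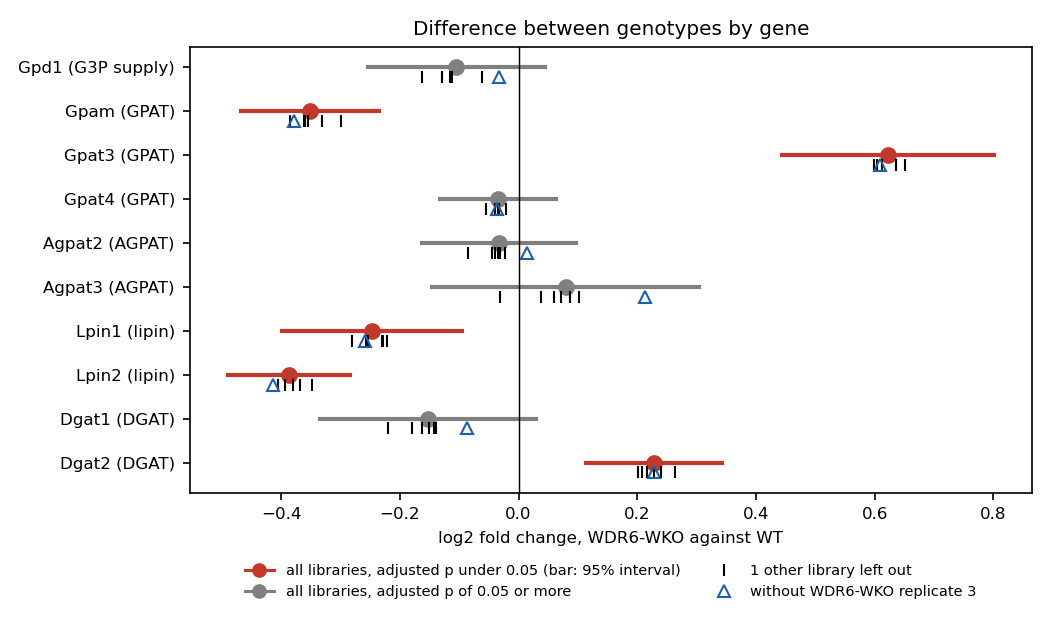
Log2 fold change of WDR6-WKO against WT (horizontal axis) for the 10 genes in pathway order, with the 95% interval from edgeR as the bar, red where the adjusted p was under 0.05. Ticks give the value with 1 other library left out and triangles the value without WDR6-WKO replicate 3, which moves *Agpat3* from 0.08 to 0.21 and leaves *Gpam*, *Gpat3* and *Lpin2* on their side of 0.

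The isozymes of a step were also compared as ratios of counts within each library, which do not depend on scaling between libraries. The *Gpat3* to *Gpam* ratio was 0.0894, 0.0901, 0.0790 and 0.0847 in WT and 0.155, 0.187 and 0.165 in WDR6-WKO. No knockout ratio overlapped a WT ratio, and the ratio was 1.97-fold higher in WDR6-WKO (log2 difference 0.98). An exact two-sided permutation test gave p = 0.0286, adjusted to 0.0429 over the 6 ratios compared. The *Gpat4* to *Gpam* ratio was 1.25-fold higher and the *Gpat3* to *Gpat4* ratio 1.58-fold higher, both without overlap and each with the same exact permutation p and adjusted p. The GPAT ratios share their counts, so each follows from the others and they are not separate results. The adjusted p of 0.0429 by permutation rests on several ratios tied at the smallest p that the 35 splits allow. Within a library, then, *Gpat3* gained on both other GPAT mRNAs, and *Gpat4* gained on *Gpam*.

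The *Dgat1* to *Dgat2* ratio went from 0.177, 0.176, 0.203 and 0.191 in WT to 0.158, 0.141 and 0.129 in WDR6-WKO. The ranges did not overlap, and the ratio was 0.764 times that in WT (exact permutation p = 0.0286, adjusted p = 0.0429). This difference was detected although *Dgat1* alone did not pass its test, and the adjusted p of the ratio rests on the same tie. The *Lpin1* to *Lpin2* ratio was 0.0601 to 0.0706 in WT and 0.0710 to 0.0746 in WDR6-WKO, apart but with an exact permutation p of 0.0571 and an adjusted p of 0.0686, so unequal falls of the lipins were not detected. The *Agpat2* to *Agpat3* ratio overlapped between the genotypes, with a log2 difference of -0.10 and an exact permutation p of 0.286, before and after adjustment.

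**Figure D3:**
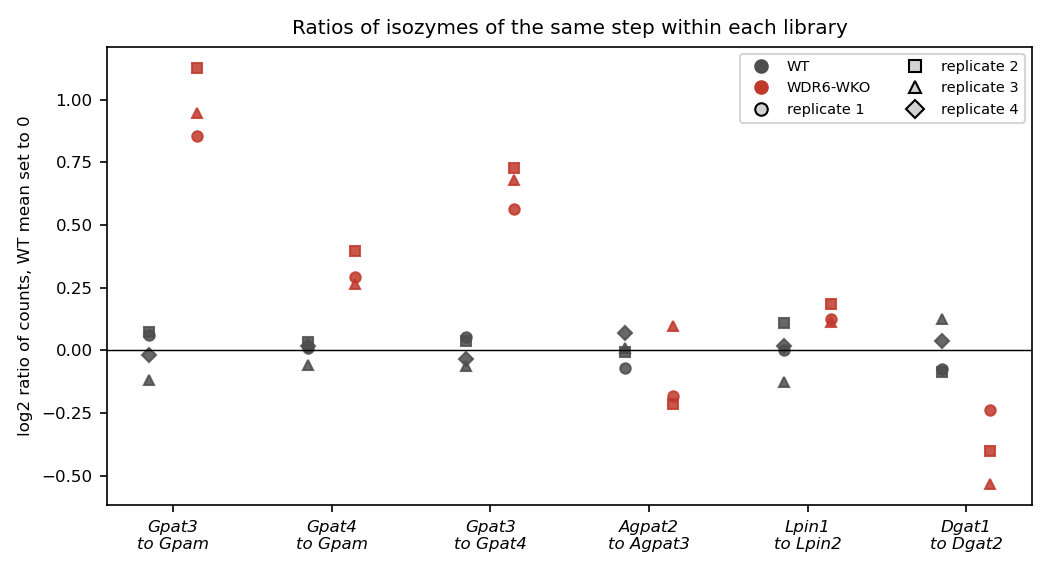
Log2 ratio of the counts of 2 isozymes within each library (vertical axis, WT mean of each pair set to 0) for 6 pairs, WT in grey and WDR6-WKO in red, with the replicate number as the symbol. All WDR6-WKO points of *Gpat3* to *Gpam* lie above all WT points, by 0.98 on average, and those of *Dgat1* to *Dgat2* lie below, by 0.39 on average.

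To compare levels between genes, CPM were divided by the merged exon length of each gene in kilobases. With merged exons *Lpin2* had the highest WT level at 38.7 ± 1.32 CPM per kb and *Dgat2* followed at 35.6 ± 1.96, with overlapping library values. *Agpat2* at 26.4 ± 0.488 and *Gpd1* at 26.2 ± 1.62 CPM per kb did not differ beyond their spread. The next group was *Gpat4* at 21.98 ± 0.152, *Gpam* at 21.4 ± 0.639 and *Agpat3* at 20.2 ± 0.782 CPM per kb, with overlapping values between neighbours. *Dgat1* at 6.68 ± 0.263, *Gpat3* at 3.49 ± 0.117 and *Lpin1* at 3.21 ± 0.177 CPM per kb were the lowest, the last pair close to each other. In WDR6-WKO *Dgat2* was at 41.7 ± 1.02 and *Lpin2* at 29.6 ± 1.44 CPM per kb. The order depends on the length used. With the longest annotated transcript *Lpin2* was first in both genotypes, at 84.0 ± 2.86 CPM per kb in WT and 64.3 ± 3.12 in WDR6-WKO, with no overlap with *Dgat2* at 48.5 ± 2.67 and 56.8 ± 1.39. In WT, *Agpat2* at 37.7 ± 0.698 CPM per kb was then apart from *Gpd1* at 27.1 ± 1.67, *Agpat3* came before *Gpam*, and *Lpin1* before *Gpat3*.

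As a share of the summed CPM per kb of a step, *Gpam* made up 45.7 ± 0.775% of the GPAT total in WT and 38.5 ± 1.33% in WDR6-WKO. *Gpat3* went from 7.44 ± 0.336% to 12.3 ± 0.796% of it, and *Gpat4* from 46.9 ± 0.501% to 49.2 ± 0.756%. *Gpat3* thus stayed the least abundant GPAT mRNA in every library. *Agpat2* made up 56.6 ± 0.978% of its pair in WT and 54.9 ± 2.94% in WDR6-WKO, *Lpin1* 7.66 ± 0.468% and 8.38 ± 0.209%, and *Dgat1* 15.8 ± 0.926% and 12.6 ± 1.14%. Summed over the listed members alone, without isozymes such as *Lpin3* and *Agpat1*, the mRNA level of the step was 77.1% of WT for the lipins, 93.0% for the GPATs, 101% for the AGPATs and 113% for the DGATs. These shares and sums are descriptions and were not tested.

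Genes around the path were read from 3 lists, with 26 of 30, 25 of 30 and 23 of 23 listed genes in the table. Of the 26 tested genes for other isozymes and for the supply of acyl-CoA, glycerol and fatty acids, 3 rose and 1 fell, 15.4% in all beside 12.8% of all genes, and the median log2 fold change was -0.0024. *Mogat2*, which makes diacylglycerol from monoacylglycerol, rose from 4.24 ± 0.290 to 7.05 ± 0.264 CPM (log2 fold change 0.73). *Aqp9*, the channel by which hepatocytes take up glycerol, rose from 19.7 ± 1.77 to 28.0 ± 2.77 CPM (log2 fold change 0.50), and *Slc27a5*, which activates bile acids and fatty acids, from 15.6 ± 0.727 to 18.8 ± 0.742 CPM (log2 fold change 0.27). *Slc27a2*, a very long chain acyl-CoA synthetase and fatty acid transporter, fell from 16.3 ± 1.57 to 8.80 ± 0.546 CPM (log2 fold change -0.89). The remaining lipin, *Lpin3*, was at 36.5 ± 1.89 and 33.1 ± 3.19 CPM, and *Agpat1* at 42.2 ± 3.25 and 42.1 ± 1.12 CPM, neither past the test. Without WDR6-WKO replicate 3, 4 genes of this list were higher and 6 lower, where 28.6% of all genes were called. The number higher was 2 with DESeq2, with the replicate block and when any other library was left out.

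Of the 25 tested genes of the phospholipid branch, which draws on phosphatidic acid and diacylglycerol, 3 rose and 3 fell, 24% in all beside 12.8% of all genes, with a median log2 fold change of 0.03. *Chka*, the choline kinase that opens the CDP-choline path, rose from 598 ± 12.4 to 711 ± 46.7 CPM (log2 fold change 0.25), *Pgs1*, for phosphatidylglycerol phosphate, by 0.27 and *Pisd*, the mitochondrial phosphatidylserine decarboxylase, by 0.32 on the log2 scale. *Chpt1*, which joins choline phosphate to diacylglycerol and so uses the same substrate as the DGATs, fell from 41.2 ± 0.810 to 33.9 ± 3.73 CPM (log2 fold change -0.29). *Etnk1* and *Selenoi*, of the CDP-ethanolamine path, had log2 fold changes of -0.22 and -0.18. The 3 lower calls were fragile: there was 1 without WT replicate 2, and 0 without WT replicate 3, WT replicate 4, WDR6-WKO replicate 1 or WDR6-WKO replicate 2. The number higher fell to 2 in the same omissions, with median-of-ratios size factors and with the replicate block.

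The 23 listed regulators of hepatic lipid synthesis were transcription factors, cofactors and the SREBP-handling genes *Scap*, *Insig1* and *Insig2*. Of these 23, edgeR's test called 7 lower and 0 higher, so 30.4% were lower beside 6.18% of all genes. Their median log2 fold change was -0.07. Because the list also holds genes that restrain SREBPs, such as *Insig2*, the count gives no direction for lipid synthesis. *Mlxipl*, which encodes the glucose-responsive factor ChREBP, fell from 149 ± 7.995 to 127 ± 5.87 CPM (log2 fold change -0.24). *Srebf1*, the gene of SREBP-1, fell from 127 ± 4.12 to 109 ± 11.7 CPM (log2 fold change -0.21), and *Insig2*, which holds SREBPs in the endoplasmic reticulum, from 94.8 ± 2.42 to 74.9 ± 0.703 CPM (log2 fold change -0.34). *Pparg* had a log2 fold change of -0.35, *Cebpa* -0.29, *Hnf4a* -0.27 and *Foxo1* -0.26, and all of these passed the test as well. *Usf1*, whose product binds E-boxes, was at 20.3 ± 1.69 and 22.3 ± 3.36 CPM (log2 fold change 0.14, adjusted p = 0.412 by edgeR). The number lower was 4 without WT replicate 2 or WT replicate 3 and 3 without WDR6-WKO replicate 2, and 1 regulator was higher without WDR6-WKO replicate 3. At an unadjusted p under 0.05 edgeR gave 1 higher, *Ppargc1a* at 7.84 ± 0.318 and 9.49 ± 1.36 CPM, and DESeq2 and limma-voom called 0 higher at an adjusted p under 0.05.

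**Figure D4:**
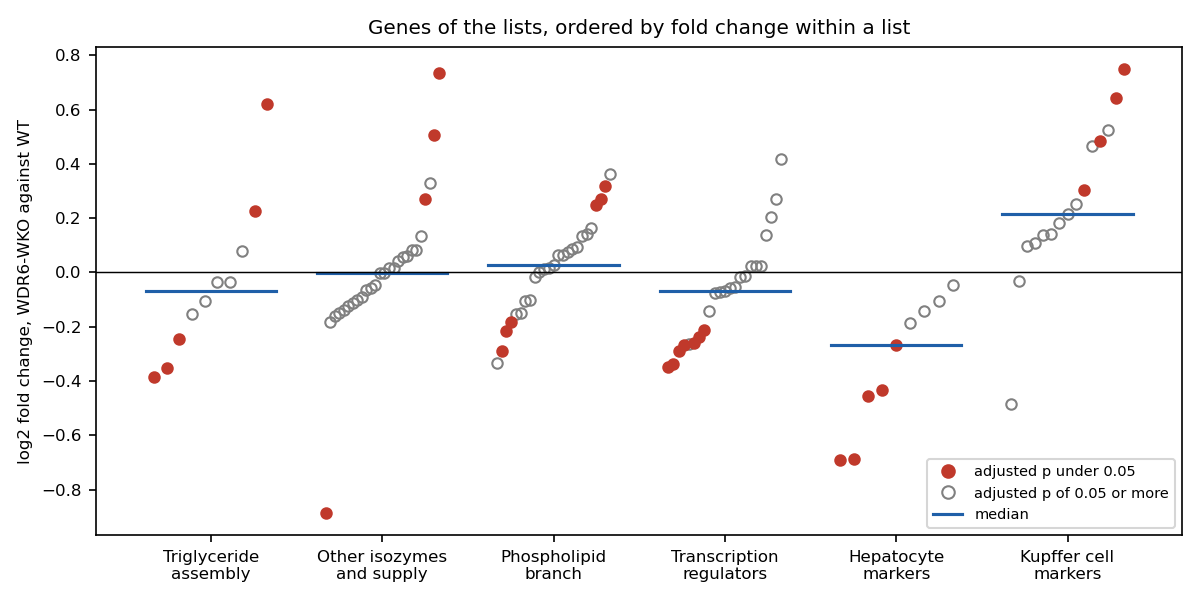
Log2 fold change of WDR6-WKO against WT (vertical axis) for each gene of 6 lists, ordered within a list, filled where the adjusted p by edgeR was under 0.05, with the list's median as the blue line. The medians are -0.07 for the 10 TAG assembly genes, -0.07 for the regulators, -0.27 for the hepatocyte markers and 0.22 for the Kupffer cell markers.

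Marker genes of the cells that a liver preparation can hold were read against the 6.65% of all genes that were higher and the 6.18% that were lower. Of 9 hepatocyte markers, 5 (*Cps1*, *Fgb*, *Hnf4a*, *Apoa1* and *Asgr1*) fell. All 9 log2 fold changes were below 0, beside 7219 of all 14779 genes, and 7 had an unadjusted p under 0.05 by edgeR. *Hnf4a* is also one of the regulators above. The summed level of the 9 was 15771 to 18751 CPM in WT and 14192 to 16236 CPM in WDR6-WKO, with overlapping ranges. Most of that sum is *Alb* and *Apob*, at means of 7366 and 5845 CPM in WT. Of 15 Kupffer cell markers, 4 (*Lyz2*, *C1qc*, *Fcgr1* and *C1qb*) rose, and the sum was 1071 to 1173 CPM in WT and 1238 to 1435 CPM in WDR6-WKO, without overlap, with *Cd5l* the highest marker. *Timd4* of this list went the other way without passing the test, from 3.65 ± 0.523 to 2.59 ± 0.278 CPM (log2 fold change -0.48, adjusted p = 0.0880 by edgeR). Of 9 stellate cell markers 2 (*Acta2* and *Dcn*) rose, with sums of 577 to 634 CPM in WT and 627 to 682 CPM in WDR6-WKO, which overlap, and *Col3a1* the highest, and of 5 cholangiocyte markers 1 (*Sox9*) rose, with sums of 252 to 277 and 255 to 279 CPM and *Krt19* the highest. Of 10 endothelial markers 0 passed edgeR's test, 0 had an unadjusted p under 0.05, and 0 passed with DESeq2 or limma-voom, with sums of 329 to 376 and 309.6 to 369.6 CPM and *Stab1* the highest. Without WDR6-WKO replicate 3, 6 hepatocyte markers were lower and 9 Kupffer and 3 stellate cell markers were higher. In that fit 28.6% of all 14796 genes tested were called, 2150 higher and 2083 lower. No marker in the table was at 0 in any library. Of 6 adipocyte markers, for the cell type in which *Gpat3* is best known, *Cidec* alone was analysed here, at 4.69 ± 0.475 and 5.20 ± 0.761 CPM. The part of these markers in the falls of *Gpam*, *Lpin1* and *Lpin2* and the rises of *Gpat3* and *Dgat2* was not tested.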

How the data were processed

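Libraries of RNA from 4 WT and 3 WDR6-WKO hepatocyte preparations, made with a NEBNext Ultra kit, were sequenced by the authors on an Illumina HiSeq. The submitters' processing notes name Bowtie2 2.2.3 and mm10, which is GRCm38. The authors deposited raw read counts for each gene symbol, with no scaling. The counting tool, annotation and strand setting are not given in the sources used here. Of 14819 rows, 21 held spreadsheet dates in place of symbols and were tested but not named, and the smallest row total was 50, so genes with few reads are not analysed here.

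Counts were analysed with edgeR 4.0.16 in R 4.3.3 (TMM scaling, filterByExpr, robust quasi-likelihood test of the genotypes, no block), with Benjamini-Hochberg adjustment over 14779 genes and a threshold of 0.05. The SE of a log2 fold change is its size over the root of the F statistic. The biological coefficient of variation was 7.40%, and counting error was below it for each of the 10 genes. Exact two-sided permutation tests used the difference in mean log2 CPM, or in mean log2 count ratio with a pseudocount of 0.5, over the 35 assignments of the 7 libraries. Levels per kilobase used merged exons of the GENCODE M21 models (GRCm38), the build of the alignment. Promoter windows came from RefSeq (GRCm38.p6). The methods describe the samples as biological replicates. Where libraries do not come from separate donor mice, p-values measure only the spread between these libraries. Counting errors cover reads only.

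The 10 genes, the pathway lists and the marker lists were chosen with earlier results of these data known. Named were all 10 genes, *Wdr6*, genes sharing at least 100 exon bases with a member, up to 8 genes of each pathway list and 5 of each marker list of those past the threshold, in order of p, and each list's highest marker. *Lpin3*, *Agpat1*, *Fabp1*, *Usf1* and *Ppargc1a* were named after their values were seen. Alternatives were median-of-ratios size factors, library size alone, the filter left out or set to 10 counts in each library, DESeq2 1.42.0, limma-voom (limma 3.58.1), the replicate block, each library left out, the fold threshold of the methods, other pseudocounts and the longest transcript. The marker lists without WDR6-WKO replicate 3 were added after seeing the data. On simulated data for this comparison, with 200 changed genes, the test recovered 162 with 10 false calls among 14708 genes. No simulated library was made to stand apart as WDR6-WKO replicate 3 does. The share of genes changed was also smaller than the share called here. These counts therefore need not hold for the data. Recovery at log2 fold changes as small as those of *Gpam*, *Lpin1*, *Lpin2* and *Dgat2* was not tested.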

Additional observations from a re-analysis of the deposited data

How the results depend on the processing

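*Gpam*, *Gpat3* and *Lpin2* kept their direction and passed the test in all 14 alternative fits, *Dgat2* in 13 and *Lpin1* in 7. Some of the passes of *Dgat2* were just under the threshold, as given with that gene. *Gpat4*, *Agpat2*, *Dgat1* and *Gpd1* passed in 0 of 14 edgeR, DESeq2 and limma-voom fits and *Agpat3* in 1. *Lpin1* had a log2 fold change of -0.22 with library size alone (adjusted p = 0.0542 by edgeR). The log2 fold change ranged from -0.28 to -0.22 for *Lpin1*, 0.20 to 0.26 for *Dgat2*, -0.031 to 0.21 for *Agpat3* and -0.085 to 0.015 for *Agpat2* when libraries were left out, and the causes were not tested. The same omissions gave 4 to 6 of the 10 genes called, 1 to 3 of them higher, and 1032 to 4233 of all genes, 570 to 2150 higher and 462 to 2083 lower. In the lists they gave 0 to 4 phospholipid genes lower, 3 to 8 regulators lower, 0 to 1 regulators higher and 1 to 6 other isozymes lower. With library size alone, 1 phospholipid gene was lower. By the fold threshold of the methods 3 of the 10 genes passed, 1 of them higher, and 583 of all genes were lower.

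With the longest transcript in place of merged exons, the shares in WT and WDR6-WKO were 43.1% and 36.1% for *Gpam*, 49.5% and 51.7% for *Gpat4*, 6.22% and 6.81% for *Lpin1*, and 18.3% and 14.6% for *Dgat1*, and *Agpat2* made up 58.9% in WT. Levels per kilobase and their order also changed, as given with the levels, while the summed steps were 77.0% of WT for the lipins, 93.5% for the GPATs, 101% for the AGPATs and 112% for the DGATs. Another scaling moved the median of all genes by at most 0.03 on the log2 scale.

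No clear pairing of the libraries by replicate number was seen. Deviations of same-numbered libraries correlated at 0.0311 to 0.0689 over 3 pairs, and 2 WT and 1 WDR6-WKO libraries correlated best with their own number. So few pairs cannot exclude a pairing. With the replicate block, 4 of the 10 genes were called, since *Lpin1* had a log2 fold change of -0.22 (adjusted p = 0.0964 by edgeR), and no other member's call changed. Leave-one-out permutation tests cannot reach 0.05, so the ratios were then values only. The lowest read count behind a member was 221, and 40 for *Wdr6* in the knockout.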
